A study of Homo sapiens with 24 samples.

Results

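ES2, a human ovarian cancer cell line, was kept under 2 control conditions in this series: a control siRNA (siCtrl) and the solvent dimethyl sulfoxide (DMSO). The 3 siCtrl libraries were set against the 3 DMSO libraries, 6 of the 24 libraries of the series, and a library belonged to a condition by the name of its column. The other ES2 libraries carried an siRNA against the kinase VRK1 (siVRK1) or luteolin, a plant flavone, and A2780, a second ovarian cancer line, had the same 4 groups, each of 3 libraries. Every library is labelled wild type, and total RNA was extracted from all of them. The labels state neither the sequence of the control siRNA nor the transfection reagent, the solvent's concentration, the cell density or the times. Transfection, siRNA, solvent, density and time therefore cannot be told apart as sources of any difference between siCtrl and DMSO. Nothing in the labels says whether replicate libraries are separate cultures, and the p-values reflect the spread among the libraries at hand, which may be technical.

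A control siRNA is a short RNA duplex chosen to have no intended target in the cell. Such duplexes are loaded into Argonaute proteins, and besides a full-length target a loaded strand can pair with messenger RNAs through its seed, the bases near its 5′ end, as microRNAs do. Double-stranded RNA can also be read by sensors such as RIG-I, which switch on interferon genes. DMSO is the carrier in which hydrophobic compounds such as luteolin are added to cells.

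The 2 conditions differed broadly. Of 12507 genes tested, 4339 were higher in siCtrl (34.7%) and 2692 lower (21.5%) at an adjusted p under 0.05 in limma, so 56.2% were called. With a 2-fold minimum 395 were higher (3.16%) and 371 lower (2.97%). The median log2 change of all genes was 0.08, and fold changes here are log2 differences of TPM + 1, siCtrl minus DMSO. TPM is a transcript's level scaled for transcript length and for the library total. Rescaling the libraries by median of ratios gave 3570 higher (28.5%) and 3411 lower (27.3%), which moved the share of higher calls to 51.1%, against 61.7% on the deposited scale. Against this background a call alone sets no gene apart.

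Libraries of 1 condition resembled each other closely. Across genes, log2 levels correlated at 0.9919 to 0.9928 among siCtrl libraries and at 0.9912 to 0.9923 among DMSO libraries, against 0.9642 to 0.9652 between the conditions; genes are not independent replicates. The keratins KRT7, KRT8 and KRT18 and vimentin were abundant, with KRT7 at 343 to 355 TPM in siCtrl and 484 to 490 TPM in DMSO. ES2 is often catalogued as a clear cell carcinoma line, and NAPSA, one of its usual markers, reached at most 0.0496 TPM in these 6 libraries. The adhesion genes EPCAM and CDH1 reached at most 0.293 TPM. Of 8 leukocyte markers CD68 was the most abundant, at 34.7 to 40.7 TPM in siCtrl and 56.6 to 66.8 TPM in DMSO, and LYZ reached 1.03 to 1.87 TPM in siCtrl and 0.166 to 0.513 TPM in DMSO. CDH5 led the 6 endothelial markers, at 29.9 to 31.4 TPM in siCtrl and 35.7 to 39.3 TPM in DMSO. COL1A1 led the 8 fibroblast markers, at 78.9 to 94.2 TPM in siCtrl and 106 to 128 TPM in DMSO. The leukocyte gene PTPRC, the endothelial VWF and the fibroblast COL3A1 reached at most 0.458 TPM, and the globin HBB was listed at 0 throughout. Summed levels were 36.0 to 42.3 TPM in siCtrl and 57.1 to 67.2 TPM in DMSO for the leukocyte list, 31.1 to 32.7 TPM in siCtrl and 36.2 to 40.1 TPM in DMSO for the endothelial one, and 82.8 to 98.3 TPM in siCtrl and 112 to 133 TPM in DMSO for the fibroblast one. The part of other cell types in the results was not tested.

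The 12 largest rises were led by genes nearly silent with DMSO. KLRC2, which encodes a natural killer cell receptor, had 15.9, 11.5 and 14.3 TPM in siCtrl libraries and 0.523, 0.116 and 0.324 TPM in DMSO libraries (log2 change 3.50 ± 0.18, SE, adjusted p = 1.41e-08). The KLRC genes are near-identical copies, so reads may be divided between them and the gene assignment is uncertain. WFDC3, of the whey acidic protein family, had 32.2, 30.4 and 34.3 TPM in siCtrl libraries and 1.94, 1.26 and 3.35 TPM in DMSO libraries (3.44 ± 0.29, adjusted p = 7.27e-07). SCG5, a chaperone of the prohormone convertase PC2, had 17.1, 16.2 and 16.4 TPM with siCtrl and 0.968, 1.77 and 0.884 TPM with DMSO (3.02 ± 0.30). The groups did not overlap for any of the 12, a condition of their choice that 63.2% of all tested genes met.

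ANKRD1, a nuclear ankyrin-repeat protein and a well-known target of YAP, was the most abundant of the 12. It had 680, 671 and 667 TPM in siCtrl libraries and 98.7, 111 and 105 TPM in DMSO libraries (2.67 ± 0.06, adjusted p = 1.31e-11). Of 24 tested genes of the YAP and TEAD list 7 rose and 10 fell (median -0.04), or 6 and 12 with median-of-ratios scaling. Of all genes 34.7% rose and 21.5% fell. IGF2BP3, an oncofetal RNA-binding protein, had 256, 266 and 267 TPM in siCtrl libraries and 46.8, 48.6 and 43.1 TPM in DMSO libraries (2.49 ± 0.07, adjusted p = 9.76e-11). In both genes the spread within a condition was small beside the distance between them. The lipid genes ACSL5, an acyl-CoA synthetase, and ANGPTL4, an inhibitor of lipoprotein lipase, rose by 2.54 ± 0.16 and 2.53 ± 0.18. The p38 kinase MAPK13 rose by 2.64 ± 0.20, and SERPIND1, the plasma protease inhibitor heparin cofactor II, stood at 17.1 TPM in each siCtrl library and at 1.79, 2.17 and 2.11 TPM in DMSO libraries. FBXO32, the ubiquitin ligase subunit atrogin-1, rose by 2.51 ± 0.09, the keratin KRT79 by 2.68 ± 0.14 and FAM43A by 2.69 ± 0.13.

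**Figure D1:**
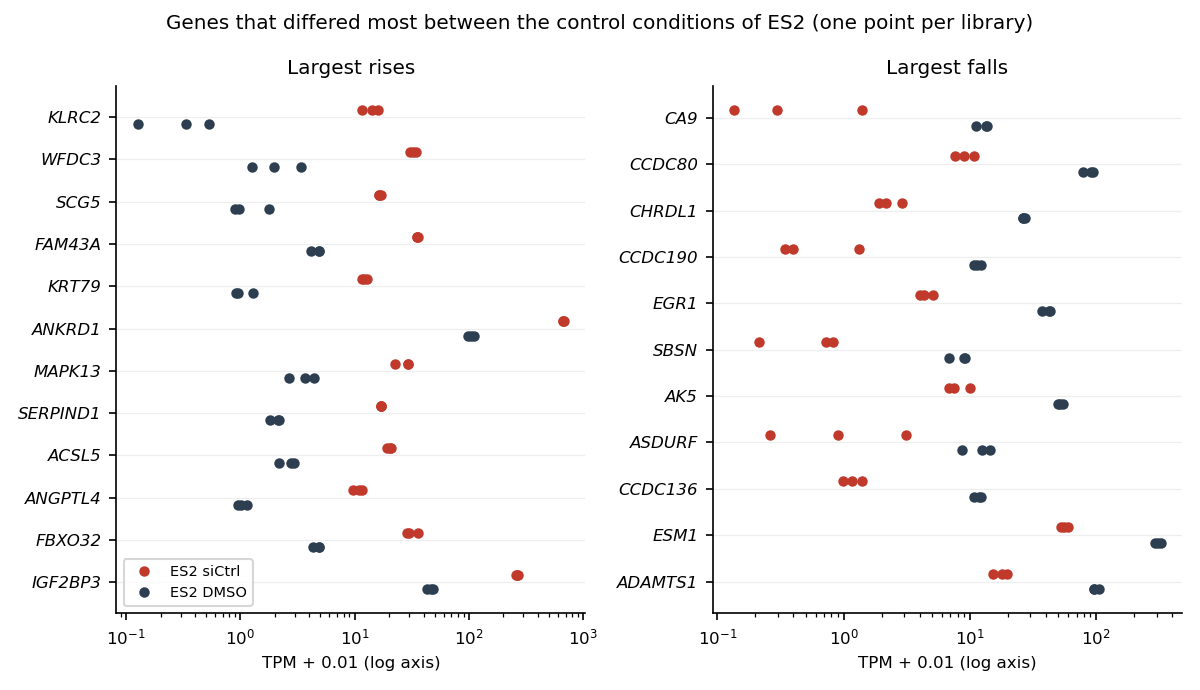
TPM of the 12 genes with the largest rises (left) and of 11 of the 12 with the largest falls (right) in each ES2 library, with 0.01 added for the log axis; red points are siCtrl libraries and dark points below them DMSO libraries. No gene's groups overlap, as their choice required, and ANKRD1 at 667 to 680 TPM with siCtrl is the most abundant of the rises.

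The largest falls included secreted and surface proteins. CA9, carbonic anhydrase IX of the cell surface, had 1.38, 0.126 and 0.288 TPM in siCtrl libraries and 13.5, 13.3 and 11.1 TPM in DMSO libraries (-3.17 ± 0.30, adjusted p = 2.16e-06). CCDC80, a secreted matrix-binding protein, had 9.03, 7.59 and 10.7 TPM with siCtrl and 91.6, 78.2 and 93.9 TPM with DMSO (-3.14 ± 0.12, adjusted p = 7.84e-10). CHRDL1, a BMP antagonist, had 1.89, 2.89 and 2.17 TPM with siCtrl and 26.2, 26.2 and 27.1 TPM with DMSO (-3.06 ± 0.09). In CA9 the first siCtrl library stood above the others of its group, yet far under the DMSO libraries.

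ESM1, the proteoglycan endocan, fell to 52.2, 55.0 and 60.1 TPM in siCtrl libraries, against 294, 306 and 324 TPM in DMSO libraries (-2.45 ± 0.06). ADAMTS1, a protease that cleaves versican, had 15.3, 17.8 and 19.5 TPM with siCtrl and 95.3, 95.3 and 105 TPM with DMSO (-2.43 ± 0.16). EGR1, an immediate early transcription factor, had 4.03, 4.30 and 5.06 TPM with siCtrl and 42.4, 43.0 and 36.8 TPM with DMSO (-2.93 ± 0.40). The adenylate kinase AK5 fell by 2.56. SBSN, CCDC136 and CCDC190 fell by 2.58, 2.54 and 2.94. ASDURF fell by 2.56, and since it overlaps ASNSD1 the assignment of its reads is uncertain.

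Fold changes were next related to the sequence of 3′ untranslated regions, where seeds pair. Every 7-base word held by at least 50 genes was scored by the mean change of those genes times the square root of their number. Words were ranked by this score. A gene held a word if its 3′ UTR had it on the sense strand. Changes were adjusted for UTR length and GC content, among 9341 genes of at least 5 TPM. This search was made after the data had been seen. The word ranked first toward lower levels in siCtrl, of 15969 words ranked, was GCAGTAC, and the word ranked first toward higher levels was TGGTGCT. The neighbours in rank were mostly words that overlap these, such as CAGTACA in the second place toward lower and GGTGCTT in the second place toward higher. Both words kept the first place with median-of-ratios scaling, with quantile normalization and without the adjustment for length and GC. By the mean change alone TGGTGCT (0.13) was not first toward higher, since CCGATAA, held by 65 genes, had 0.23.

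The sites of GCAGTAC in genes that fell are shown because they carry the first pattern; the word is in capitals and 10 bases flank it on each side. They lie in 3′ UTRs of GENCODE 29 on GRCh38, in the sense direction.
EMP2, chr16:10532862-10532888, minus strand: tgcttctgctGCAGTACagaatccaca
ALCAM, chr3:105575545-105575571, plus strand: aatttatcaaGCAGTACatgaaagtgt
F2R, chr5:76734805-76734831, plus strand: tgaaaacaatGCAGTACaggacatata
LRRC20, chr10:70301005-70301031, minus strand: aggtttttaaGCAGTACgtgcctccaa
SLC41A1, chr1:205791309-205791335, minus strand: cctgagataaGCAGTACaagtaggttt
AGO4, chr1:35854832-35854858, plus strand: acgactacttGCAGTACaaattttttg
DNMT1, chr19:10133470-10133496, minus strand: atcaaattgtGCAGTACtttgtgcatt
PRC1, chr15:90966182-90966208, minus strand: tctgcctgcaGCAGTACtactgtcaac

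GCAGTAC stood in the 3′ UTR of 340 genes, 3.64% of those searched. Of these, 163 were called lower in siCtrl (47.9%), against 21% of the 9001 genes without it, and 66 were called higher (19.4% against 41.2%). Their median change was -0.17, against 0.11 without the word. Among the 18 genes with 2 or more sites 72.2% were called lower, with a median of -0.31. Genes with the word had longer 3′ UTRs, with a median of 2439 bases against 772 bases. Since the word was chosen for these changes, the counts describe it and test nothing.

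EMP2, a tetraspan membrane protein whose 3′ UTR held 3 sites, had 1.54, 0.846 and 0.996 TPM in siCtrl libraries and 9.45, 9.17 and 12.1 TPM in DMSO libraries (-2.41 ± 0.14, adjusted p = 3.05e-08). ALCAM, a cell adhesion molecule also called CD166, had 22.3, 21.9 and 23.5 TPM with siCtrl and 109, 109 and 119 TPM with DMSO (-2.27 ± 0.07). F2R, the thrombin receptor PAR1, had 9.74 to 10.2 TPM with siCtrl and 44.4, 43.3 and 42.6 TPM with DMSO (-2.02 ± 0.05). The conditions were far apart in all 3. The magnesium transporter SLC41A1 fell by 1.91, LRRC20 by 2.0, the cytokinesis protein PRC1 by 1.67 and the maintenance DNA methyltransferase DNMT1 by 1.53. These genes were picked for display after their values were seen.

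The A2780 libraries, which the search in ES2 had not used, gave GCAGTAC the first place toward lower as well, of 16007 words. The size was smaller there: of 345 genes with the word 17.1% were called lower in A2780 siCtrl, against 12.2% without it, and 42.6% against 53.4% were called higher. The medians were 0.19 with and 0.24 without the word. In A2780, EMP2 averaged 6.09 TPM with siCtrl and 14.7 TPM with DMSO (-1.15, adjusted p = 9.91e-06), and F2R averaged 1.95 TPM with siCtrl and 4.77 TPM with DMSO (-0.96, adjusted p = 7.86e-05). ALCAM, LRRC20, SLC41A1 and PRC1 also fell in A2780, by 0.45, 0.37, 0.64 and 0.44. The changes of DNMT1 (-0.17, adjusted p = 0.158) and AGO4 (-0.53, adjusted p = 0.0701) did not pass the threshold there.

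In ES2 libraries with siVRK1 the same 340 genes had a median change against DMSO of 0.09, beside 0.07 for the genes without the word. Levels with siVRK1 averaged 11.4 TPM for EMP2, 49.5 TPM for F2R, 113 TPM for PRC1 and 103 TPM for DNMT1, close to the DMSO levels. ALCAM differed from these, with 22.5 TPM in siVRK1 libraries, near its siCtrl level. The reverse complement of GCAGTAC was the seed of 0 mature microRNAs in the RefSeq table. Whether a strand of the control siRNA carries that seed was not tested, because its sequence is not given in the sources used here.

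**Figure D2:**
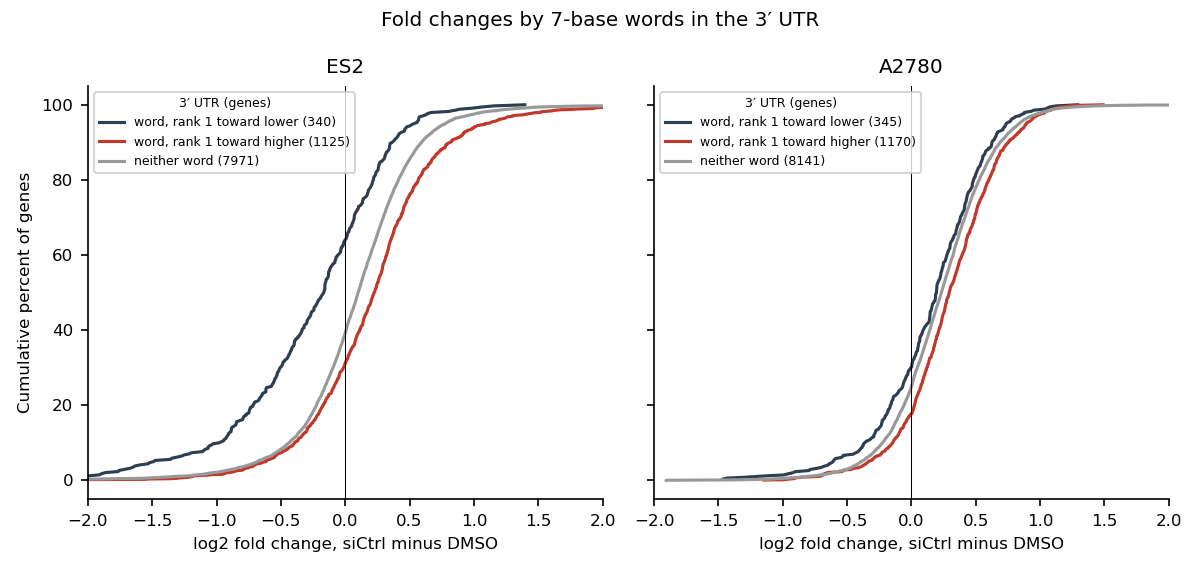
Cumulative percent of genes against their log2 fold change, siCtrl minus DMSO, in ES2 (left) and A2780 (right), for genes whose 3′ UTR holds the word ranked first toward lower (dark), the word ranked first toward higher (red) or neither (grey). In ES2 the dark curve lies left of the grey one along most of its course, with medians of -0.17 with that word and 0.11 without it, and in A2780 the curves are closer.

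TGGTGCT, the word that led toward higher levels, is the reverse complement of the seed of the miR-29 family. The family is known to repress collagens and other matrix genes, and its mature sequences are shown from RefSeq on GRCh38.p14, with the seed (bases 2 to 8) in capitals.
miR-29a-3p, chr7:130876748-130876769, minus strand: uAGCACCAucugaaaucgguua
miR-29b-3p, chr7:130877467-130877489, minus strand: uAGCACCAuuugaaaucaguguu
miR-29c-3p, chr1:207801865-207801886, minus strand: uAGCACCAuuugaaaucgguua
The sites in matrix genes and proteases that rose are given next, with the word in capitals, again on GRCh38.
SPARC, chr5:151661368-151661394, minus strand: ttggcccattTGGTGCTggccatttga
MMP2, chr16:55505731-55505757, plus strand: tgggctgcccTGGTGCTgccacacttc
COL6A3, chr2:237324592-237324618, minus strand: cctatcagtaTGGTGCTaatgtgtctg
COL5A2, chr2:189032864-189032890, minus strand: cctttaatgaTGGTGCTaaaattcttc
COL4A1, chr13:110150317-110150343, minus strand: tgtcacaacaTGGTGCTacttcttctt
ADAM19, chr5:157480101-157480127, minus strand: ctctaatgtgTGGTGCTttggtgagca

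The word was in the 3′ UTR of 1125 genes, 12% of those searched. Of these, 50.7% were called higher in siCtrl, against 39.0% of genes without it, and 16.9% against 22.6% were called lower. The median change was 0.23 with the word and 0.09 without it. The 152 genes with 2 or more sites had a median of 0.17, below the 0.23 of genes with 1 site. In ES2 siVRK1 libraries the 1125 genes had a median change against DMSO of 0.14, beside 0.06 for genes without the word. With luteolin these medians were -0.044 and -0.041. In A2780 the word ranked 9720th toward higher of 16007, although 59.7% of its genes were called higher against 52.0% of the others, before the adjustment for UTR length and GC. MicroRNA levels were not measured, and a match is a run of letters, not a tested site.

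Matrix genes split in ES2. SPARC, a matricellular glycoprotein, had 842, 834 and 826 TPM in siCtrl libraries and 216, 194 and 216 TPM in DMSO libraries (2.0 ± 0.04, adjusted p = 1.31e-11). COL6A3, a chain of collagen VI, had 63.3, 67.9 and 62.7 TPM with siCtrl and 15.0, 14.4 and 16.2 TPM with DMSO (2.02 ± 0.09). Against these rises, fibronectin (FN1) fell to 54.4, 58.5 and 51.1 TPM in siCtrl libraries, against 250, 257 and 256 TPM in DMSO libraries (-2.20 ± 0.06, adjusted p = 9.06e-11). The collagen cross-linking enzyme LOX fell by 1.53 and tenascin C (TNC) by 1.03, although the 3′ UTR of LOX holds 3 copies of TGGTGCT. Of 24 matrix and mesenchymal genes tested, 11 rose and 11 fell, with a median of -0.08, where 34.7% of all genes rose and 21.5% fell. Of the 11 tested list genes with the word, 7 rose, beside 50.7% of the 1125 searched genes that held it.

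Enzymes that cut matrix and receptors that hold it were looked at next. MMP2, gelatinase A, had 78.5, 80.5 and 82.7 TPM in siCtrl libraries and 16.9, 13.6 and 16.7 TPM in DMSO libraries (2.29 ± 0.09, adjusted p = 1.07e-09). ADAM19, a membrane-bound metalloprotease, had 15.8, 16.6 and 15.9 TPM with siCtrl and 2.97, 3.34 and 3.28 TPM with DMSO (2.03 ± 0.07). The inhibitor TIMP1 fell by 0.74, to 266 to 277 TPM with siCtrl, against 440 to 473 TPM with DMSO. Of 14 metalloproteinases and inhibitors 7 rose and 4 fell (median 0.36), and of 21 integrins and laminins 10 rose and 3 fell (median 0.24), where 34.7% of all genes rose and 21.5% fell. The collagen receptor chain ITGA2 rose by 1.93 and the fibronectin receptor chain ITGA5 by 1.17.

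TGF-beta is a cytokine that signals through SMAD proteins and induces many matrix genes. TGFBI, a secreted protein named for its induction by TGF-beta, had 303, 292 and 298 TPM in siCtrl libraries and 63.6, 63.0 and 64.3 TPM in DMSO libraries (2.21 ± 0.07, adjusted p = 2.70e-10). The inhibitory SMAD7 rose by 1.62 ± 0.23. ID3, an inhibitor of helix-loop-helix factors induced by BMPs, had 12.6, 12.5 and 12.8 TPM with siCtrl and 57.0, 54.8 and 56.7 TPM with DMSO (-2.07 ± 0.04), and the activin antagonist follistatin (FST) fell by 1.79. Of 19 genes of the list 10 rose and 4 fell (median 0.31), where 34.7% of all genes rose. The falls were at a share near the 21.5% of all genes. With median-of-ratios scaling 8 rose and 6 fell, beside 28.5% and 27.3% of all genes.

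Genes of cell division were lower in siCtrl. Of 40 genes of G1/S and DNA replication 25 fell and 2 rose, with a median of -0.37, and of 38 genes of G2/M and mitosis 27 fell and 3 rose, with a median of -0.29. Of all genes 21.5% fell and 34.7% rose. With median-of-ratios scaling 31 and 28 of the list genes were lower, and the share lower of all genes also grew, to 27.3%. Thymidine kinase TK1 had 30.6, 31.6 and 29.6 TPM in siCtrl libraries and 80.4, 89.6 and 85.2 TPM in DMSO libraries (-1.45 ± 0.07, adjusted p = 4.59e-09). The transcription factor E2F1, which drives S-phase genes, had 13.4, 14.2 and 14.6 TPM with siCtrl and 34.4, 34.9 and 32.4 TPM with DMSO (-1.21 ± 0.07). The groups lay well apart in both genes.

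The uracil glycosylase UNG fell by 1.2, the proliferation marker MKI67 by 1.08 and the spindle kinesin KIF11 by 1.07. Cyclin A2 (CCNA2) went the other way, with 61.2, 60.3 and 58.6 TPM with siCtrl and 46.2, 48.6 and 47.0 TPM with DMSO (0.34 ± 0.05, adjusted p = 9.22e-05). The cyclin-dependent kinase inhibitor CDKN1B (p27) was also higher, by 1.19 ± 0.09. PRC1 had the largest fall of the mitosis list, and it and KIF11 were its 2 members whose 3′ UTR held GCAGTAC. In bulk RNA a smaller share of dividing cells and less of these transcripts in each cell cannot be told apart.

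**Figure D3:**
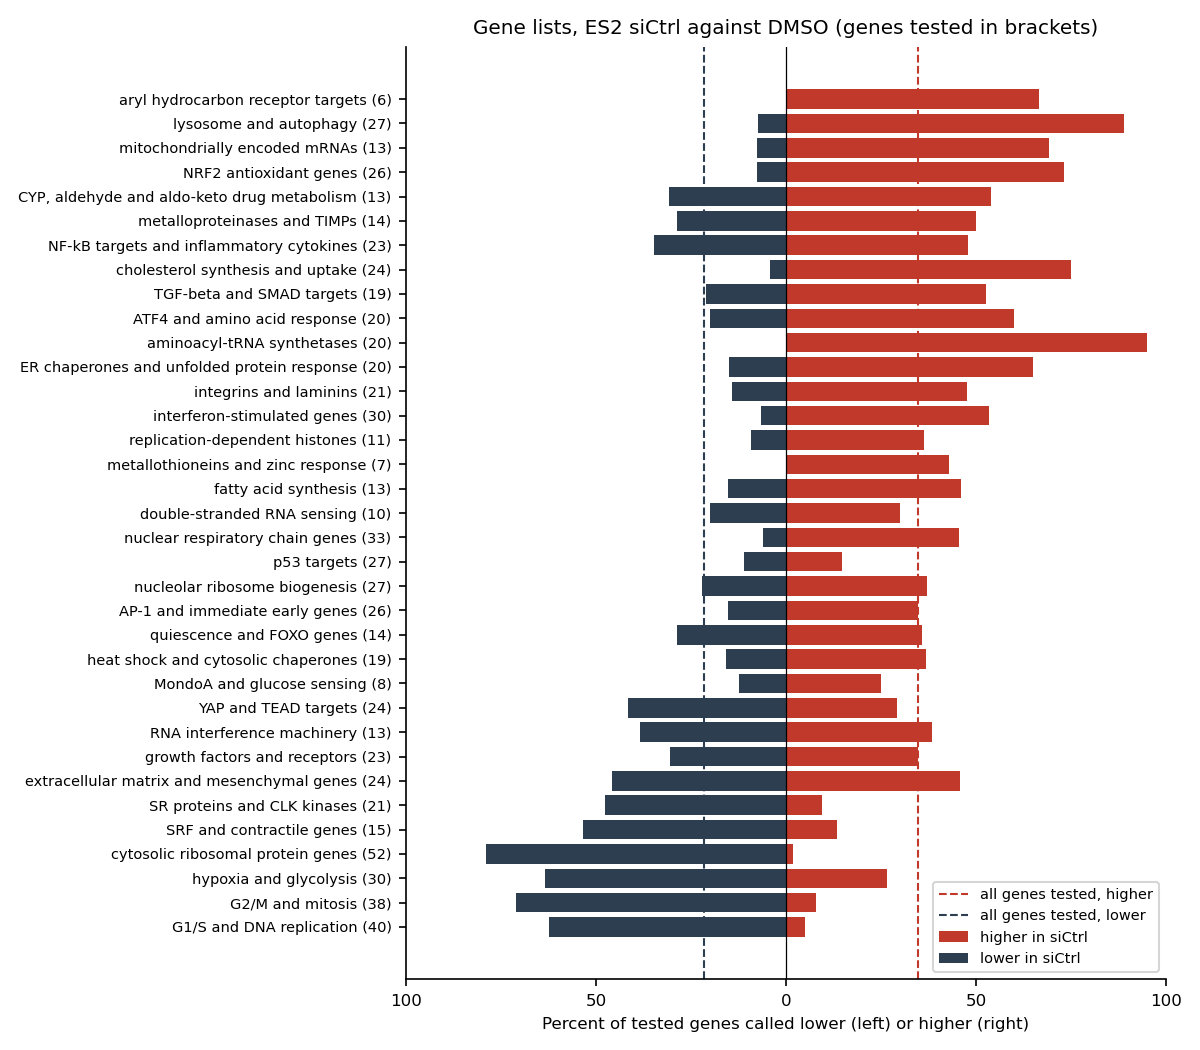
Percent of the tested genes of each list called higher in ES2 siCtrl (red, right) or lower (dark, left), ordered by the list's median fold change; dashed lines mark the 34.7% higher and 21.5% lower among all genes tested. Aminoacyl-tRNA synthetases (19 of 20 higher) and lysosome genes (24 of 27 higher) lie far right, and ribosomal protein, replication and mitosis genes far left.

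Lysosomes break down proteins and lipids, and autophagy delivers cell parts to them. Of 27 genes of this list 24 rose and 2 fell, with a median of 0.49, beside 34.7% and 21.5% of all genes. SQSTM1, the autophagy receptor p62, had 173, 176 and 171 TPM in siCtrl libraries and 79.4, 70.1 and 75.7 TPM in DMSO libraries (1.2 ± 0.09, adjusted p = 1.92e-07). GABARAPL1, of the ATG8 family, had 26.3, 29.9 and 31.8 TPM with siCtrl and 11.9, 15.1 and 13.4 TPM with DMSO (1.07 ± 0.14). The exceptions were the lysosomal membrane protein LAMP2 (-0.77) and the autophagy kinase ULK1 (-0.73). Of the 2 members whose 3′ UTR held GCAGTAC, 1 was called lower.

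NRF2 is the transcription factor of the antioxidant response, and 19 of 26 of its target genes rose and 2 fell (median 0.39). Among all genes 34.7% rose and 21.5% fell. The aldo-keto reductase AKR1C3 had 24.5 to 27.5 TPM in siCtrl libraries and 5.16, 5.40 and 6.27 TPM in DMSO libraries (2.01 ± 0.10, adjusted p = 1.01e-08). AKR1C genes are close copies of each other, so this value is uncertain. OSGIN1 rose by 1.14 ± 0.16. Heme oxygenase HMOX1 was slightly lower (-0.23 ± 0.07, adjusted p = 0.0120), a call lost without siCtrl replicate 3 (-0.20).

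Genes of cholesterol synthesis and uptake, which the SREBP2 factor drives, rose in 18 of 24 cases and fell in 1 (median 0.34). INSIG1, which holds SREBP proteins in the endoplasmic reticulum and is itself their target, had 91.6, 90.9 and 94.3 TPM in siCtrl libraries and 33.9, 34.1 and 33.7 TPM in DMSO libraries (1.42 ± 0.06, adjusted p = 2.94e-09). HMGCS1, of the mevalonate pathway, rose by 1.02 ± 0.09 and HSD17B7 by 0.77 ± 0.11. STARD4, a sterol carrier, was the gene that fell (-0.83 ± 0.19). With median-of-ratios scaling 14 rose and 3 fell. All genes gave 34.7% higher and 21.5% lower, or 28.5% and 27.3% with that scaling.

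Aminoacyl-tRNA synthetases, which charge tRNAs for translation, rose in 19 of 20 cases by modest amounts (median 0.26), in 14 of 20 with median-of-ratios scaling and in 10 of 20 with quantile normalization. RARS1 had 164, 161 and 160 TPM with siCtrl and 106, 106 and 114 TPM with DMSO (0.57 ± 0.04), and YARS1 rose by as much. Of 20 genes of ER chaperones and the unfolded protein response 13 rose and 3 fell (median 0.26), and 12 rose and 6 fell with quantile normalization. The largest rises of this list were those of the co-chaperone DNAJB9 (1.27 ± 0.13), CRELD1 (1.24 ± 0.10) and the ER-associated degradation gene HERPUD1 (1.10 ± 0.20). Its 3 falls were those of SEL1L, PDIA4 and HSP90B1. Of 20 ATF4 targets of the amino acid response 12 rose and 4 fell (median 0.30), where 34.7% of all genes rose and 21.5% fell. The falls included those of PHGDH, ASNS (-0.44) and PSAT1.

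Transcripts of cytosolic ribosomal proteins took a smaller share of the library in siCtrl. All coding genes with a ribosomal protein symbol together made up 23.0%, 22.7% and 22.7% of all TPM in siCtrl libraries. In DMSO libraries they made up 26.9%, 26.5% and 26.7%, with no overlap (exact permutation p = 0.1, two-sided, the smallest that 3 against 3 allows). The calls were counted in a narrower list of 52 ribosomal protein genes. That list summed to 152880 to 155140 TPM in siCtrl libraries and 177090 to 179110 TPM in DMSO libraries. Of the 52 genes 41 fell and 1 rose (median -0.21). With median-of-ratios scaling 49 fell and none rose, while quantile normalization gave 22 lower and 9 higher, where all genes gave 26.7% and 28.0%, so the count depends on the scaling. The 100 most abundant genes held 35.1%, 35.3% and 35.0% of TPM in siCtrl libraries and 39.4%, 38.2% and 38.7% in DMSO libraries. The 13 mitochondrial mRNAs held 5.31%, 5.60% and 5.25% with siCtrl and 5.15%, 4.03% and 4.53% with DMSO (exact p = 0.1 for each share). Of these mRNAs 9 were called higher and 1 lower, beside 34.7% and 21.5% of all genes. Transcripts annotated as retained introns, which can vary with RNA quality, held 4.17%, 4.10% and 4.02% with siCtrl and 4.32%, 4.36% and 4.30% with DMSO, with no overlap (exact p = 0.1), and their part in the results was not tested.

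Inflammatory genes moved both ways. IL1A, an alarmin cytokine, had 4.89, 4.85 and 4.95 TPM in siCtrl libraries and 0.0959, 0.158 and 0.171 TPM in DMSO libraries (2.37 ± 0.12, adjusted p = 1.21e-08). The apoptosis inhibitor BIRC3 rose by 2.36 ± 0.25 and the adhesion molecule ICAM1 by 1.17 ± 0.07. In contrast IL11, a cytokine of the IL-6 family, had 2.04, 2.99 and 2.99 TPM with siCtrl and 15.8, 16.6 and 15.8 TPM with DMSO (-2.23 ± 0.29). Prostaglandin synthase PTGS2 fell by 1.73 and the chemokine CXCL3 by 1.33. Of 23 NF-kB targets and cytokines 11 rose and 8 fell (median 0.35), where 34.7% of all genes rose and 21.5% fell.

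Interferon-stimulated genes rose in 16 of 30 cases and fell in 2, with a median of 0.24, where 34.7% of all genes rose and 21.5% fell. IFIT3, an antiviral protein, had 9.80, 8.46 and 9.84 TPM in siCtrl libraries and 2.61, 2.30 and 2.74 TPM in DMSO libraries (1.55 ± 0.11, adjusted p = 1.48e-07). IFIT2 rose by 1.27 ± 0.15 at levels below 2.5 TPM, and the exonuclease ISG20 by 1.24 ± 0.07. IFITM2 fell by 0.63. With median-of-ratios scaling 12 of the list rose and 2 fell, beside 28.5% and 27.3% of all genes.

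Of 15 sensors and adaptors of double-stranded RNA, 10 reached the filter, and 3 rose and 2 fell among them, a share near that of all genes. DDX58 (RIG-I) had 13.4, 12.7 and 13.6 TPM in siCtrl libraries and 6.40, 5.79 and 6.88 TPM in DMSO libraries (0.95 ± 0.08, adjusted p = 5.79e-07). ZNFX1, a helicase that binds viral RNA, rose by 0.45 ± 0.07. The oligoadenylate synthetase OAS3 had 1.90, 2.19 and 2.96 TPM with siCtrl and 0.913, 1.29 and 0.805 TPM with DMSO (0.74 ± 0.23, adjusted p = 0.0170), a call lost without siCtrl replicate 3 (0.61) and without DMSO replicate 3 (0.66). The adaptors MAVS (-0.30) and TICAM1 (-0.34) were lower. EIF2AK2 (PKR), IRF3, IRF7 and ADAR did not pass the test, with changes between -0.10 and 0.12, and IFIH1, DHX58, TLR3, OAS1 and OAS2 were below 1 TPM in all 6 libraries.

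DICER1, which cuts hairpins and long duplexes into small RNAs, had 19.1, 18.2 and 17.4 TPM in siCtrl libraries and 7.22, 7.81 and 7.30 TPM in DMSO libraries (1.19 ± 0.08, adjusted p = 1.59e-07). AGO4, an Argonaute whose 3′ UTR held GCAGTAC in 2 places, had 1.88, 3.43 and 1.67 TPM with siCtrl and 8.14, 10.1 and 6.95 TPM with DMSO (-1.52 ± 0.24, adjusted p = 0.000144). AGO1 (0.26) and AGO3 (0.37) were higher, and AGO2, the Argonaute that cleaves its targets, had 15.9 to 19.8 TPM with siCtrl and 14.5 to 24.7 TPM with DMSO, with overlapping groups (adjusted p = 0.84). The exporter XPO5 rose by 0.35 and the scaffold TNRC6B by 0.44, while the DICER1 partner TARBP2 fell by 0.46, DGCR8 by 0.15, TNRC6A by 0.36 and TNRC6C by 0.69. DROSHA and PRKRA did not pass the test. In all, 5 of 13 genes rose and 5 fell. The share that rose is near the 34.7% of all genes, while 21.5% of all genes fell. With median-of-ratios scaling 3 rose and 6 fell, beside 28.5% and 27.3% of all genes. Several of the smaller calls were close to the threshold. The call of AGO1 was lost with the replicate number as a block (0.26). The call of DGCR8 was lost without any 1 of the 6 (-0.16 to -0.13), and that of TNRC6A without siCtrl replicate 1 (-0.29). The call of AGO3 was lost without siCtrl replicate 3 (0.26), DMSO replicate 1 (0.35) or DMSO replicate 3 (0.32), and that of TNRC6B without siCtrl replicate 2 (0.30), DMSO replicate 1 (0.47) or DMSO replicate 3 (0.31).

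Genes of hypoxia and glycolysis fell in 19 of 30 cases and rose in 8 (median -0.24), where 21.5% of all genes fell and 34.7% rose. Besides CA9, the mitophagy receptor BNIP3 had 159, 159 and 158 TPM in siCtrl libraries and 299, 272 and 279 TPM in DMSO libraries (-0.83 ± 0.04, adjusted p = 3.87e-09), and hexokinase HK2 fell by 0.77. The glucose transporter SLC2A3 rose by 1.61 ± 0.25, as ANGPTL4 did. Of 26 AP-1 and immediate early genes 9 rose and 4 fell, near the shares of all genes, or 6 and 8 with quantile normalization. The phosphatase DUSP1 had 35.0, 34.8 and 36.4 TPM with siCtrl and 138, 140 and 136 TPM with DMSO (-1.93 ± 0.10), next to the fall of EGR1, while KLF4 rose by 1.56 ± 0.18 and JUNB by 0.90 ± 0.20.

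The ES2 libraries with siVRK1, which also received an siRNA, were closer to DMSO than to siCtrl. Their log2 levels correlated across 12507 genes at 0.9631 to 0.9650 with siCtrl libraries and at 0.9721 to 0.9748 with DMSO libraries. Of the 395 genes at least 2-fold higher in siCtrl, the siVRK1 mean lay nearer to DMSO for 258 (65.3%), and of the 371 genes at least 2-fold lower for 268 (72.2%). In A2780 the same measure gave 30.4% of 335 and 32.9% of 73. The siCtrl and DMSO libraries also chose these genes, so the shares are a description. The labels of some siVRK1 libraries name siVRK2 or siVRK3 in the treatment field, and the titles were used. Some ES2 siVRK1 columns carried the same name, so these libraries were placed by group and not by replicate number.

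Single genes showed each pattern. KRT79 averaged 0.609 TPM with siVRK1, ANKRD1 143 TPM and TGFBI 69.0 TPM, all near DMSO. EGR1 at 5.32 TPM, DUSP1 at 30.4 TPM and ID3 at 17.5 TPM with siVRK1 lay near siCtrl instead, as did SERPIND1 at 12.6 TPM. SPARC with 573 TPM lay between the conditions, and COL6A3 with 6.06 TPM was below both. The luteolin libraries, which share the solvent control, averaged 15.0 TPM for ANKRD1, 152 TPM for EGR1 and 290 TPM for DUSP1.

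**Figure D4:**
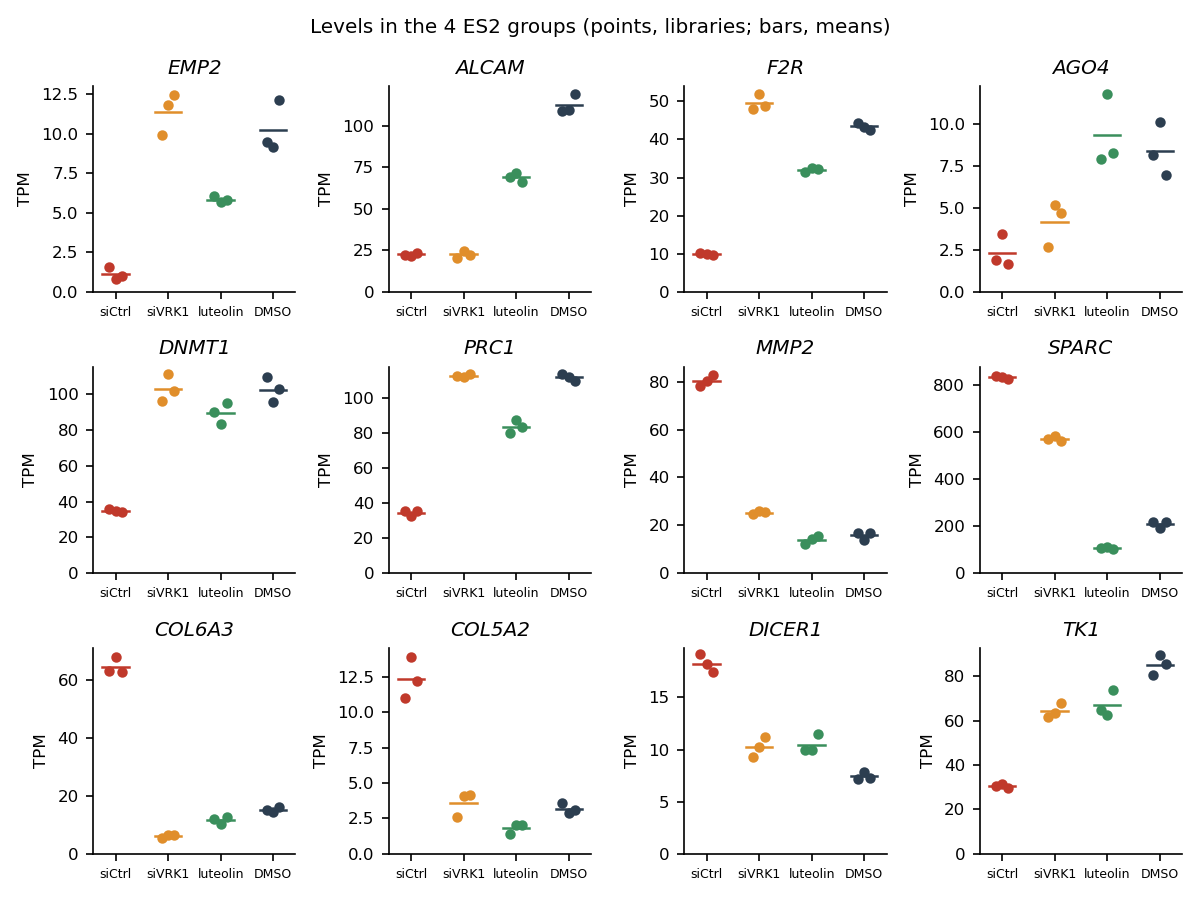
TPM of 12 genes in each library of the 4 ES2 groups, with a bar at each mean; the axes start at 0. siCtrl stands apart from the other groups in F2R, DNMT1, PRC1, MMP2, COL6A3 and DICER1, while ALCAM in siVRK1 libraries (mean 22.5 TPM) is near its siCtrl level.

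The effect of siCtrl against DMSO was then compared with that in A2780, where 6144 of 13012 genes were higher (47.2%) and 1412 lower (10.9%). The difference between the lines, ES2 minus A2780, was tested directly over all 24 libraries. Of 14328 genes 1935 had a more positive change in ES2 (13.5%) and 4414 a more negative one (30.8%). Median-of-ratios scaling turned this split round, to 3467 (24.2%) and 2766 (19.3%), and since the median difference was -0.16, values of single genes and lists are given relative to it. Of 11304 genes tested in both lines, 2633 were higher in both and 646 lower in both, 177 were higher in ES2 and lower in A2780, and 640 were lower in ES2 and higher in A2780.

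p53 is a transcription factor that answers stress and halts division, and its target genes differed between the lines. In ES2, 4 of 27 were higher and 3 lower (median 0.02, and 3 and 6 with median-of-ratios scaling), and in A2780 27 of 29 were higher and none lower (median 0.65). The difference was called more negative in ES2 for 22 of 30 and more positive for 1, with a median of -0.42 relative to all genes, and for 16 of 30 with median-of-ratios scaling. Of all genes 30.8% were called more negative and 13.5% more positive, or 19.3% and 24.2% with median-of-ratios scaling. In ES2 itself 34.7% of all genes were higher and 21.5% lower, or 28.5% and 27.3% with median-of-ratios scaling. In A2780 47.2% of all genes were higher and 10.9% lower. GADD45A, a growth arrest gene, had 51.7, 50.5 and 53.8 TPM in ES2 siCtrl and 95.4, 94.3 and 90.7 TPM in ES2 DMSO (-0.83), against means of 43.8 TPM in siCtrl and 22.3 TPM in DMSO of A2780 (0.95). FDXR, a mitochondrial reductase, fell by 0.38 in ES2 and rose by 1.01 in A2780.

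Replication genes, cholesterol genes and respiratory chain genes also differed. The shares over all genes were 13.5% more positive in ES2 and 30.8% more negative, or 24.2% and 19.3% with median-of-ratios scaling. Of 40 G1/S genes the difference was more negative in ES2 for 30 and positive for none (median -0.45, and 25 lower and 1 higher with median-of-ratios scaling). Of 24 cholesterol genes it was more positive for 17 and negative for none (median 0.55, and 20 with median-of-ratios scaling). In A2780 itself 4 of them rose and 7 fell, where 47.2% of all genes rose and 10.9% fell. Of 33 nuclear respiratory chain genes it was more positive for 16 and negative for none (median 0.30, and 28 with median-of-ratios scaling). Lysosome genes rose in both lines, in 24 of 27 cases in ES2 and 21 of 28 in A2780, and NRF2 targets in 19 of 26 and 18 of 23. Of all genes 34.7% rose in ES2 and 47.2% in A2780. The difference was more positive in ES2 for 7 of 28 lysosome genes and negative for 5 (median 0.26), or 16 and 2 with median-of-ratios scaling. For 26 NRF2 targets it was positive for 7 and negative for 7 (median 0.15), or 11 and 5 with that scaling.

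**Figure D5:**
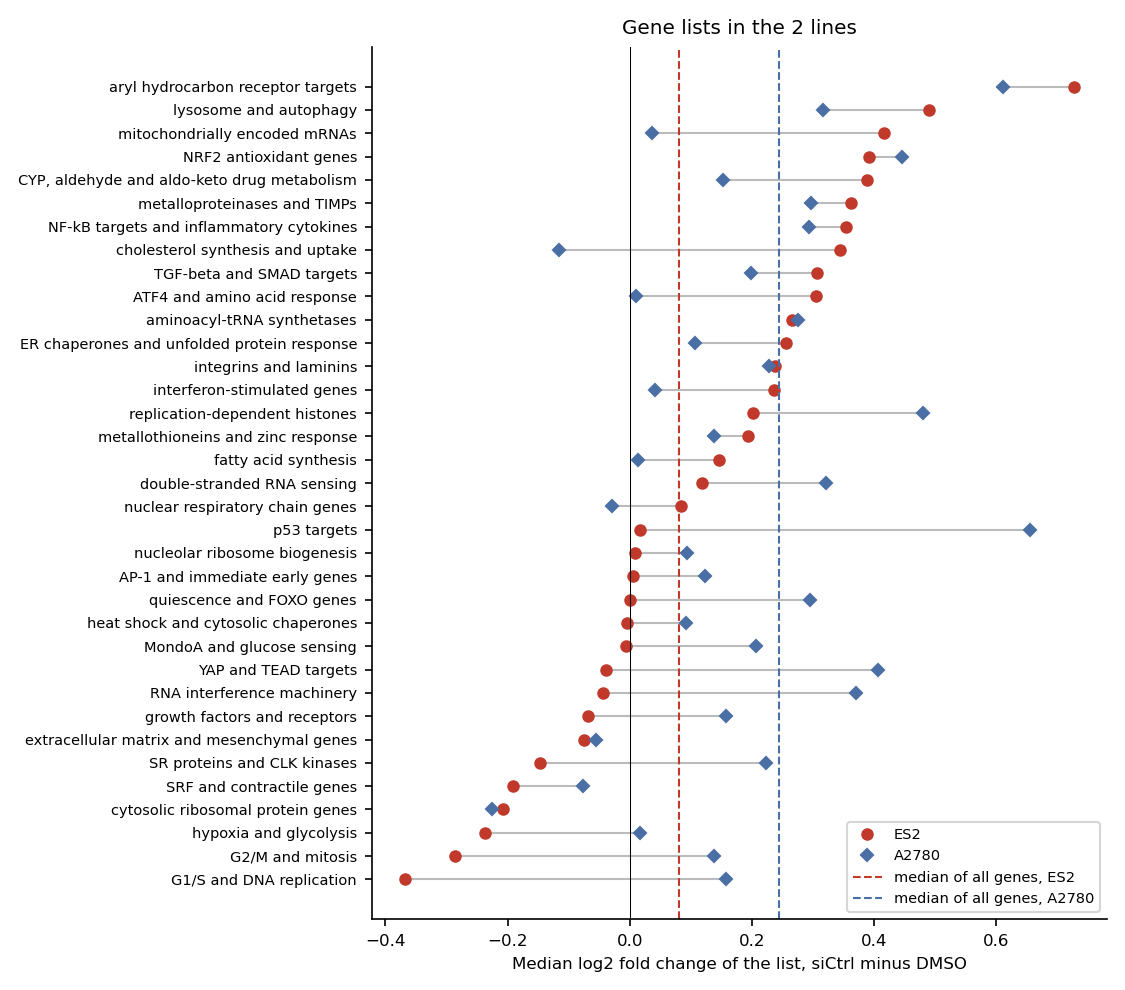
Median log2 fold change of each gene list, siCtrl minus DMSO, in ES2 (red circles) and A2780 (blue diamonds), with dashed lines at the medians of all genes (0.08 and 0.24). p53 targets (0.02 in ES2 and 0.65 in A2780) and G1/S genes (-0.37 and 0.16) are far apart. Aminoacyl-tRNA synthetases (0.26 and 0.27) are close as drawn, while their median difference, ES2 minus A2780, was 0.25 relative to all genes.

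The 6 most positive differences were those of KLRC2, IFI30, WFDC3, FBXO32, SCG5 and FAM43A, and the 6 most negative those of ASDURF, DUX4, CCDC80, CA9, ADAMTS1 and CCDC190. Of these 12 genes, KLRC2, WFDC3, FBXO32, SCG5, CA9 and CCDC190 averaged below 1 TPM in both A2780 conditions, where a change could hardly be seen. ADAMTS1, which fell in ES2, averaged 6.49 TPM with siCtrl and 4.22 TPM with DMSO in A2780 (0.51, adjusted p = 0.0185). FAM43A averaged 5.14 TPM with siCtrl and 5.13 TPM with DMSO in A2780, against a rise of 2.69 in ES2. IFI30, a lysosomal thiol reductase, had 6.90, 11.9 and 6.05 TPM in ES2 siCtrl and 0.461, 1.04 and 0.413 TPM in ES2 DMSO (2.47 ± 0.25), whereas it averaged 25.2 TPM with siCtrl and 48.3 TPM with DMSO in A2780 (-0.91, adjusted p = 0.000135). DUX4, which lies in many repeat copies and is therefore uncertain, averaged 29.5 TPM with siCtrl and 1.97 TPM with DMSO in A2780 and did not pass the test in ES2 (adjusted p = 0.854). SPARC, which rose in ES2, fell slightly in A2780 (-0.34, adjusted p = 0.0107).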

How the data were processed

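RNA sequencing of 24 libraries was deposited by the authors as TPM per transcript. Per the submitters' processing notes, kallisto and FastQC were used with hg19, without versions. The transcript set, the strand setting and the depth are not stated there. TPM was summed per gene symbol over distinct transcripts: 191887 of 193845 lines, the rest being identical repeats. Transcripts with no symbol (9542) or several (19) were left out and held 0.514% to 0.709% of the TPM of an ES2 library. ES2 genes reaching 1 TPM numbered 11792 to 11948 per library. TPM adds to 1000000 in each library, so depth is unknown and no counting interval can be given.

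Log2 of TPM + 1 was fitted with limma 3.58.1 (limma-trend, R 4.3.3) on the 12 ES2 libraries, or on all 24 for the difference between lines, for genes of at least 1 TPM in 3 or more libraries. P-values are two-sided and Benjamini-Hochberg adjusted over all genes tested, with a threshold of 0.05; ± gives the standard error of the fit. Fold changes on this scale understate changes of low genes. Shares were compared by an exact permutation test.

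Named genes were the 12 largest rises and 12 largest falls among called genes without overlap, a mean of 5 TPM or more in the group with the higher level and an established symbol, up to 3 per direction from each list, the 6 largest line differences per direction, and the members of the RNA sensing and RNA interference lists; the text names some of these, and a few are not reported here. The 35 gene lists hold 809 genes, all in the table. The comparison, the lists and the rule were chosen with earlier results of these data known. The 3′ UTRs came from GENCODE 29 by transcript ID, and the sequence search was added after the data were seen. Close gene copies and overlapping genes are uncertain, because kallisto divides shared reads. The alternatives were other pseudocounts, filters, scalings, library sets, a robust prior, the replicate block, each library left out and removal of the 13 mitochondrial mRNAs. The fits were tested on simulated data. Analyses ran in Python 3.11.15 with pandas 2.3.3.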

Additional observations from a re-analysis of the deposited data

Results flagged for a closer look

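The effect of siCtrl against DMSO differed between ES2 and A2780 by a direct test, with 1935 genes more positive and 4414 more negative in ES2. Of 106 genes followed one by one, 83 had a difference called on the deposited scale and, in the same direction relative to the median, with median-of-ratios scaling. It was positive for 40 and negative for 43. Of these 83 genes, 24 averaged below 1 TPM in both A2780 conditions, where little change could be seen, and 10 were called in opposite directions in the lines (ADAMTS1, SPARC, ID3, TIMP1, HMOX1, GADD45A, FDXR, TNRC6C, DGCR8 and IFI30). Values here are log2 differences, ES2 minus A2780, relative to the median of all genes.

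Among the largest rises the difference was 3.66 for KLRC2, 3.54 for WFDC3, 2.88 for SCG5, 2.86 for FAM43A, 2.84 for KRT79, 1.10 for ANKRD1, 2.72 for MAPK13, 2.77 for SERPIND1, 2.40 for ACSL5, 2.60 for ANGPTL4, 2.89 for FBXO32 and 1.62 for IGF2BP3. Among the largest falls it was -2.81 for CA9, -2.87 for CCDC80, -2.67 for CHRDL1, -2.77 for CCDC190, -2.61 for EGR1, -2.49 for SBSN, -2.13 for AK5, -3.68 for ASDURF, -2.55 for CCDC136, -2.28 for ESM1 and -2.78 for ADAMTS1. Genes shown for the word GCAGTAC gave -1.09 for EMP2, -1.65 for ALCAM, -0.894 for F2R, -1.47 for LRRC20, -1.11 for SLC41A1, -1.2 for DNMT1 and -1.07 for PRC1. Genes shown for the word TGGTGCT gave 2.50 for SPARC, 2.54 for MMP2, 2.34 for COL6A3, 1.05 for COL5A2, 1.63 for COL4A1 and 2.07 for ADAM19. Genes of division gave -1.08 for TK1, -0.985 for E2F1, -1.12 for UNG, -1.25 for MKI67, -0.625 for KIF11 and 0.807 for CDKN1B. Other matrix, integrin and TGF-beta genes gave -2.42 for FN1, -0.987 for LOX, -0.849 for TNC, 2.26 for TGFBI, -2.04 for ID3, -1.82 for FST, 1.24 for ITGA2, 1.2 for ITGA5, -0.989 for TIMP1 and 1.90 for SMAD7. Genes of RNA interference gave 0.676 for DICER1, -0.916 for TNRC6C and -0.308 for DGCR8. Interferon and inflammatory genes gave 1.64 for IFIT3, 1.13 for IFIT2, 2.49 for IL1A, 1.12 for BIRC3, 1.33 for ICAM1, -1.50 for IL11, -1.61 for PTGS2 and -1.28 for CXCL3. Lysosome and NRF2 genes gave -0.401 for LAMP2, -0.599 for ULK1, 1.73 for AKR1C3 and -1.80 for HMOX1. Cholesterol, ER and tRNA synthetase genes gave 1.72 for INSIG1, 1.14 for HMGCS1, 0.848 for HSD17B7, 1.23 for CRELD1, 1.0 for HERPUD1, 0.378 for RARS1 and 0.444 for YARS1. Hypoxia, immediate early and p53 genes gave -0.826 for BNIP3, -0.70 for HK2, -1.55 for DUSP1, 1.61 for KLF4, 0.98 for JUNB, -1.62 for GADD45A and -1.23 for FDXR. The remaining pair of large differences was 3.54 for IFI30 and -3.35 for DUX4.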

How the results depend on the processing

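The counts of genes called in ES2 stayed within 1.5 times under every alternative run, apart from the 2-fold counts, which depend on the pseudocount: with 0.1 there were 630 lower by at least 2-fold, and with 5 there were 168 higher and 128 lower, against 395 and 371. Leaving out each ES2 library in turn gave 3868 to 4136 higher, 2376 to 2539 lower, 373 to 407 higher by at least 2-fold and 372 to 388 lower by at least 2-fold. Without genes holding either 3′ UTR word, 3638 were higher and 2274 lower. The share differences between siCtrl and DMSO ranged from 0.544 to 1.11 percentage points for mitochondrial mRNAs, from -3.96 to -3.76 for ribosomal protein genes and from -3.94 to -3.31 for the 100 most abundant genes.

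For the difference between the lines, median-of-ratios scaling gave 3467 higher, 2766 lower and 469 lower by at least 2-fold, and quantile normalization gave 2862 lower and 373 lower by at least 2-fold. A pseudocount of 0.1 gave 1309 lower by at least 2-fold, and a pseudocount of 5 gave 144 higher and 209 lower by at least 2-fold. Leaving out each library in turn gave 1767 to 1879 higher and 3835 to 4706 lower, and 289 to 314 higher and 681 to 801 lower by at least 2-fold.

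Replicate numbers did not pair the libraries, since deviations of same-numbered ES2 libraries correlated at -0.0149 to 0.0208. With the replicate block there were 4214 higher and 2553 lower in ES2 and 1766 and 3944 for the difference between lines. Among 104 genes followed through the alternatives, the calls of AGO1, AGO3 and DGCR8 were lost with the block. The calls of AGO3 and TNRC6B were also lost with either other scaling and without a filter, and that of DGCR8 with all 24 libraries, with the 6 libraries alone and without mitochondrial mRNAs. None of the 104 genes changed sign. TPM keeps no depth, so counting error could not be given.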
